A study of Homo sapiens with 2 samples.

Results

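This account covers 7 genes of the SOX family other than SOX9, chosen by name, in HCT116, an established human colorectal carcinoma cell line. They are SOX1, SOX2, SOX4, SOX11, SOX14, SOX17 and SOX21, and they were read through 70 bins of 1 kb, the 10 bins within 5 kb of each start, out of 2736177 bins of chromosomes 1 to 22 and X that held a read in at least 1 library. The series was a chromatin immunoprecipitation (ChIP-seq) map of H3K27me3 in cells grown in McCoy's 5A medium with serum and crosslinked with formaldehyde, with no treatment or genetic change named in the labels. It held 1 group of 2 libraries, replicate 1 with 53187504 reads and replicate 2 with 97031399 reads, which the labels describe as biological replicates of 1 line. No second condition and no input library were used here, so every value below compares a place in the genome with the rest of the same library, and copy number and mappability are not corrected.

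H3K27me3 is the trimethylation of lysine 27 of histone H3. Polycomb repressive complex 2 deposits it, classically over CpG-rich starts of developmental regulator genes that are silent in a given cell type. SOX proteins are transcription factors that bind DNA through an HMG box related to that of SRY, and each steers a few lineages. SOX1 and SOX2 are the activators of neural progenitors, and SOX2 also maintains pluripotent cells. SOX14 and SOX21 are close relatives that act mostly as repressors in neurons and their precursors. SOX4 and SOX11 form another subgroup active in progenitors, with SOX4 expressed in many epithelia and tumours. SOX17 drives endoderm and endothelium and restrains Wnt signalling.

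The level of a bin is its read count divided by the library's mean over listed autosomal 1 kb bins, a mean of 22.002 reads for replicate 1 and of 37.535 for replicate 2. A level averages over all cells and alleles, so fewer marked copies and less mark per copy cannot be told apart. Within 5 kb of the start the 7 genes fell apart into higher and lower ones, a split that changed with the window. SOX21, SOX17, SOX14 and SOX2 averaged between 1.59 and 2.58 there in the individual libraries, while SOX1, SOX4 and SOX11 stayed under 0.5 in both. Across the 7 genes the median was 1.59 in replicate 1 and 1.92 in replicate 2, whereas the median autosomal window of 10 kb stood at 0.344 in the mean of both libraries. SOX11 was the lowest, at 0.0364 and 0.107. ACTB (0.141 and 0.123) and GAPDH (0.09999 and 0.0639), which are active in all cells, were above SOX11 in replicate 1 and on either side of it in replicate 2.

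**Figure D1:**
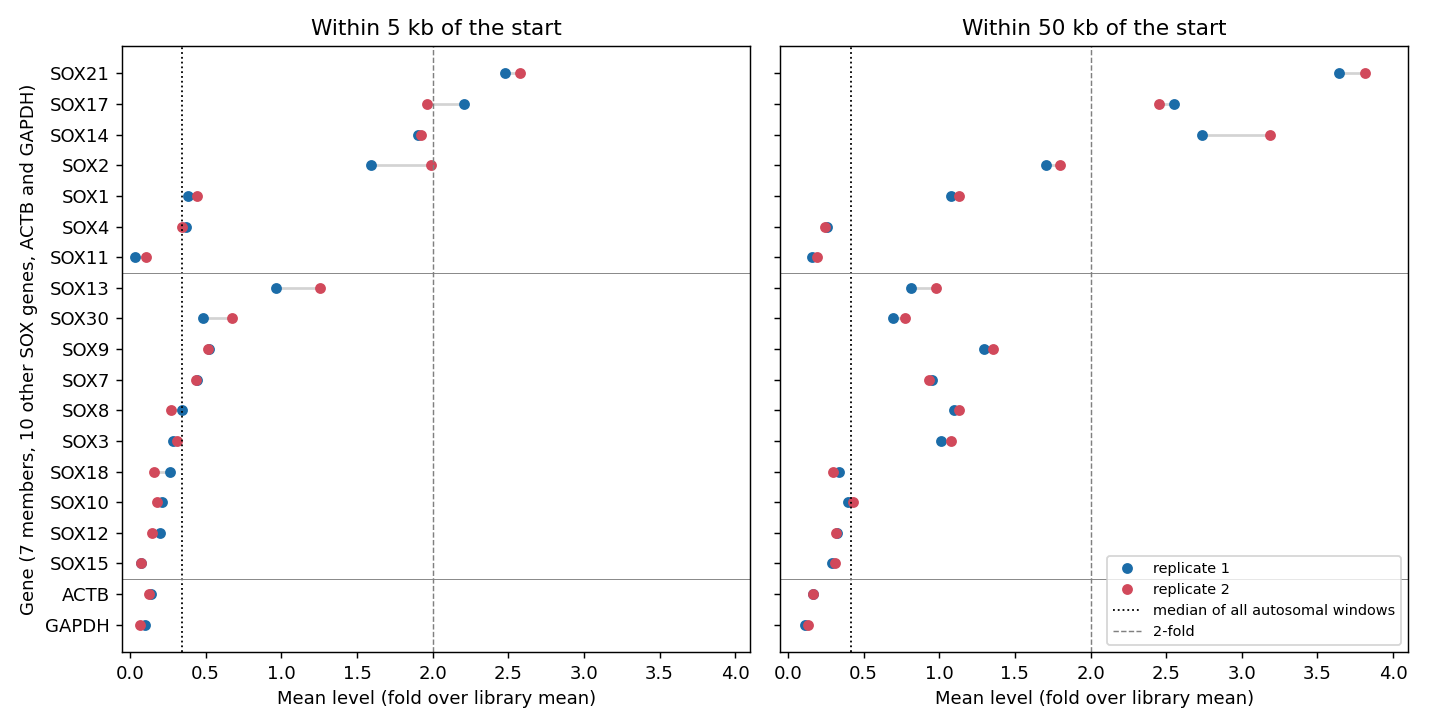
Mean H3K27me3 level (x axis, fold over the library mean) within 5 kb (left) and 50 kb (right) of the start for the 7 genes described here, 10 other SOX genes, ACTB and GAPDH, with 1 point per library. SOX21, SOX17, SOX14 and SOX2 lie at 1.59 or above in both panels, and SOX4 and SOX11 lie under 0.5 in both. In the right panel SOX4 and SOX11 lie below each of the 10 other SOX genes.

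Each bin was tested for more reads than the mean of its library (Poisson, one-sided), with Benjamini-Hochberg adjustment over all 2736177 bins. Enriched bins are those with an adjusted p under 0.05 and a level of 2 or more in replicate 1 and in replicate 2 alike. Of the 70 bins within 5 kb, 16 were enriched (22.9%), against 12.2% of all bins. They belonged to SOX21 with 6, SOX17 with 4, and SOX2 and SOX14 with 3 each, while SOX1, SOX4 and SOX11 had 0 of 10 bins each, and at an unadjusted Poisson p under 0.05 in both libraries they still had 0. Having at least 1 enriched bin was thus the case for 4 of 7 genes (57.1%), against 23% of all 10 kb windows of the autosomes. For the window as a whole, only SOX21 reached 2-fold in both libraries, or 14.3% of the genes, which is close to the 13.6% of all 10 kb windows and so no result about these genes. The 3 genes under 0.5-fold (42.9%) likewise stand beside 57.8% of all 10 kb windows. In the mean of both libraries, SOX1 and SOX4 ranked at percentiles 55.04 and 51.2 of these windows, so they stood at the level of ordinary autosomal sequence. SOX11 ranked at percentile 2.42, below nearly all of it, and SOX21 at percentile 89.2.

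The surroundings gave a graded order, with SOX1 between the higher and the lower genes. Within 50 kb, 227 of the 700 bins were enriched (32.4%), against 12.2% of all bins. SOX21, SOX14 and SOX17 were above 2-fold in both libraries, 3 of 7 genes (42.9%) against 13.2% of all 100 kb windows. SOX21 stood at 3.65 in replicate 1 and 3.81 in replicate 2, with 78 of 100 bins enriched. SOX14 had 2.74 and 3.18 with 60 bins, and SOX17 had 2.55 and 2.45 with 52 bins. SOX2 had 1.71 and 1.80 with 32 bins. SOX1 was intermediate at 1.07 and 1.13 with 5 bins, and neither SOX4 (0.257 and 0.246) nor SOX11 (0.160 and 0.195) had any. Neighbours in this order did not overlap between their libraries.

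**Figure D2:**
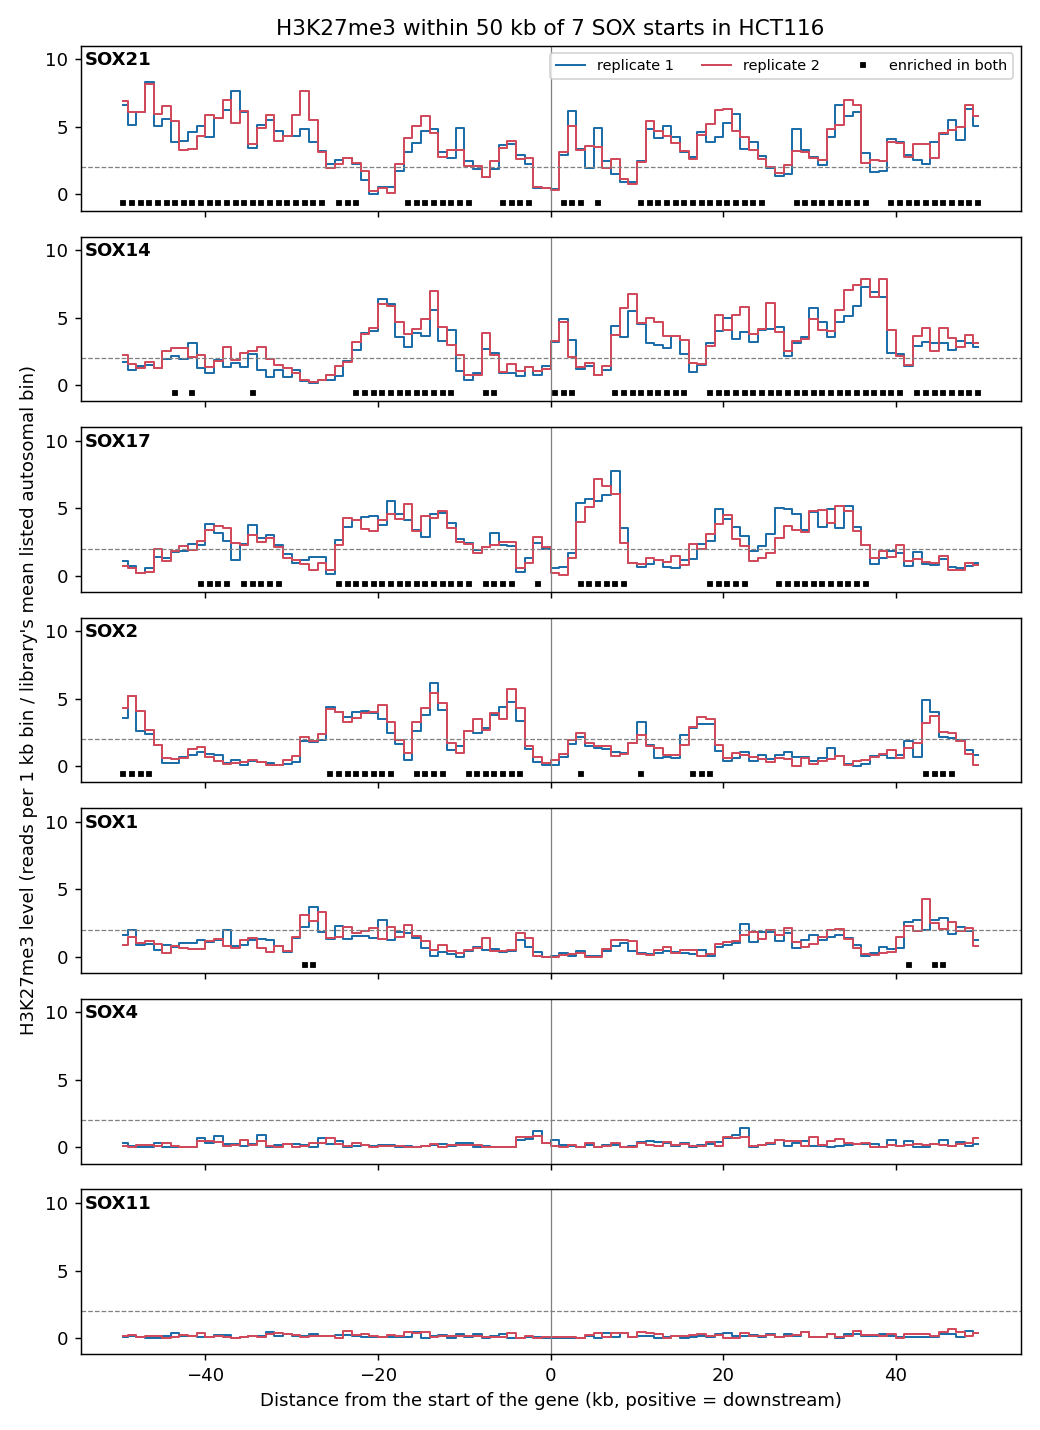
H3K27me3 level per 1 kb bin (y axis, fold over the library mean) against distance from the start (x axis, kb, downstream positive) for the 7 genes, with a line per library, black squares under bins enriched in both and a dashed line at 2-fold. The squares number 78 for SOX21 and 60 for SOX14, and there are 0 for SOX4 and SOX11.

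The order within 5 kb was less sharp. SOX21 led with 2.53 ± 0.0721 (SD, n = 2), followed by SOX17 with 2.08 ± 0.175, SOX14 with 1.91 ± 0.0117 and SOX2 with 1.79 ± 0.282. SOX14 and SOX2 overlapped between libraries. SOX17 and SOX14 did not, but their exact Poisson 95% intervals did in both libraries, in replicate 2 at 1.82 to 2.11 for SOX17 and 1.78 to 2.07 for SOX14. SOX1 with 0.412 ± 0.0428 and SOX4 with 0.358 ± 0.0205 overlapped in their counting intervals in both libraries. SOX11 was below all others at 0.0715 ± 0.0496. These intervals, and the limits of 3 reads given for empty bins, treat reads as independent and cover counting error only. Counts per bin scattered between the libraries 2.52 times as widely, in variance, as counting error gives, so the intervals and limits are too narrow. The order also followed the window. Within 2 kb SOX14 led with 2.55, followed by SOX17 with 1.35 and SOX21 with 1.105, and SOX2 had 0.431 and 0 enriched bins, next to SOX4 with 0.442. Within 10 kb SOX17 led with 2.78, followed by SOX21 with 2.35, SOX14 with 2.19 and SOX2 with 2.03.

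At 3 of the 4 genes with enriched bins, SOX2, SOX21 and SOX17, the start itself carried less of the mark than its flanks in both libraries. The 2 bins within 1 kb of the SOX2 start stood at 0.0909 (replicate 1) and 0.333 (replicate 2), against 2.45 and 2.94 in its flanks from 2 to 5 kb. At SOX21 the start had 0.454 and 0.413, against 3.40 and 3.55 in the flanks. SOX17 showed a shallower fall, to 1.27 and 1.16 at the start against 2.75 and 2.39 in the flanks. For SOX1 the start held 2 reads and 0 reads, which is a level of 0.0454 and, for the count of 0, a limit of 3 reads or 0.0400. Its flanks were themselves low, at 0.508 and 0.697.

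The ratio of start to flanks was 0.0370 and 0.113 for SOX2 and 0.134 and 0.116 for SOX21. Among 327560 autosomal windows with flanks of at least 1.5-fold on either side in both libraries, 1.01% had a ratio under 0.25 in both, limits chosen after the values had been seen. The median ratio of these windows was 0.971 in the mean of both libraries, so a centre below its flanks was common among them. Their 5th percentile was 0.414, and the mean ratio of SOX17, 0.474, was above it. Low starts were not particular to these genes. Of the 10 other SOX genes listed further on, 8 in replicate 1 and 7 in replicate 2 had a start below its flanks, and SOX3 (0.245 and 0.0571), SOX7 (0.176 and 0.209) and SOX30 (0.125 and 0.115) had ratios under 0.25 in both libraries, with flanks under 1-fold. SOX14 was the sole gene of the 7 with more mark at the start in both libraries, where the start stood at 2.30 and 2.25, against 1.47 and 1.501 in the flanks. SOX4 gave ratios of 1.73 and 0.675 from 19 and 18 reads at the start, on opposite sides of 1. SOX11 had 0 and 6 reads at its start and 6 and 30 in its flanks, too few for a shape.

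**Figure D3:**
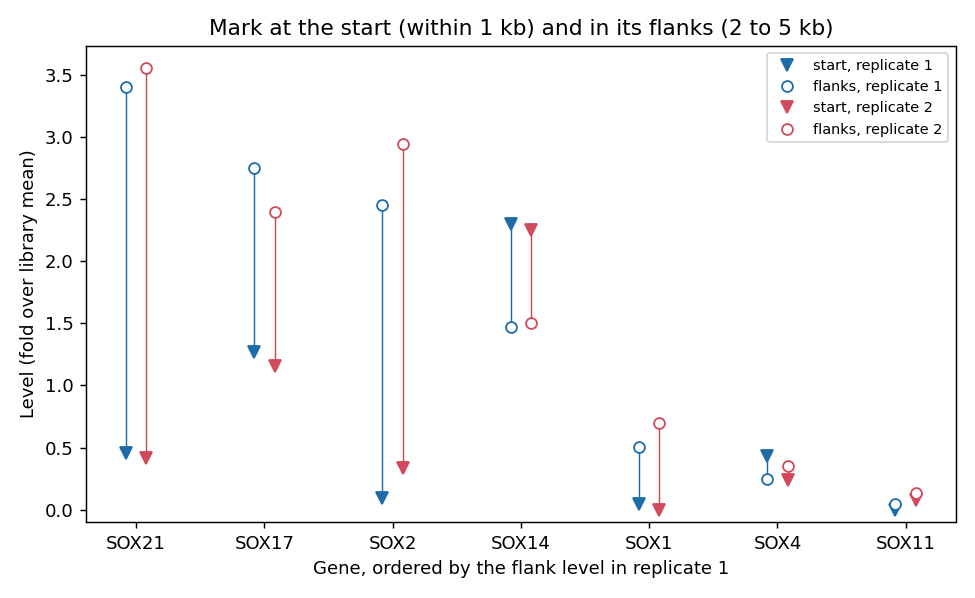
Level (y axis, fold over the library mean) in the 2 bins within 1 kb of the start (triangles) and in the 6 flanking bins from 2 to 5 kb (open circles), joined by a line per library, for the 7 genes (x axis). In SOX21, SOX17, SOX2 and SOX1 the triangles lie below the circles in both libraries, and in SOX14 above them (2.30 and 2.25 against 1.47 and 1.501).

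The start positions are given to the kb, so a gap about 1 bin wide can be missed or met by rounding. With all starts moved up the chromosome by 1 kb the mean ratio of SOX17 was 0.106, and with them moved down it was 1.22, against 0.474 at the stated start. SOX14 had ratios below 1 in a pair of settings, 0.573 with its start moved down and 0.744 when flanks from 5 to 50 kb were used. SOX1, SOX2 and SOX21 stayed below 1 in each of the 6 alternatives tried.

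The bases before the starts show what kind of sequence these genes start in. The RefSeq promoter table (GRCh38.p14) held 4 of the 7 genes, and the 250 bases before each start are printed 5′ to 3′, with each CpG in capitals. SOX1 is chr13:112066899-112067148 on the plus strand, SOX2 is chr3:181711675-181711924 on the plus strand, SOX21 is chr13:94712546-94712795 on the minus strand and SOX4 is chr6:21593501-21593750 on the plus strand. SOX1, SOX2 and SOX21 are shown because their starts fell furthest below their flanks, and SOX4 for contrast, as a gene with no enriched bin.
SOX1: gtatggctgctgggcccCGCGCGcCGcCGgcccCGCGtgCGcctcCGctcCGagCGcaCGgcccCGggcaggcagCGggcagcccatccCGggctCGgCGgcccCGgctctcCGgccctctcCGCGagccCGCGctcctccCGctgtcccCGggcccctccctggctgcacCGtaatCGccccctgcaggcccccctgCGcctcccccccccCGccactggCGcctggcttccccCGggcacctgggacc
SOX2: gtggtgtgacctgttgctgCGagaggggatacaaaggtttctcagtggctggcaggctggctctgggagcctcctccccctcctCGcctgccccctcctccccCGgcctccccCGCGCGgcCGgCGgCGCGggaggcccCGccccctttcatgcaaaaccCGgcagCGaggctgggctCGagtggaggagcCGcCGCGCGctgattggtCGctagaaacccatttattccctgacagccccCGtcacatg
SOX21: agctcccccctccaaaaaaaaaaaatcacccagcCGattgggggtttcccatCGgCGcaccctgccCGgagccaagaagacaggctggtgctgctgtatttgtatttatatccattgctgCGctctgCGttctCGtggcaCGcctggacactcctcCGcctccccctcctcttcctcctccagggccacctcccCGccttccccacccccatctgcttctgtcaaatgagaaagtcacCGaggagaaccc
SOX4: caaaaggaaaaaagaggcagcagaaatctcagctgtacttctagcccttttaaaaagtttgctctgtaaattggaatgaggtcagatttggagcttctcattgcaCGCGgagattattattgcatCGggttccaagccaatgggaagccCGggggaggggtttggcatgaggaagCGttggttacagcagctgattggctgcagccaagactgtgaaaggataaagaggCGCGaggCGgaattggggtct

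SOX1 held 31 CpGs at 82% G and C, and 10.9% of 35114 promoters had as many CpGs. SOX2 held 20 at 68.8%, as many as 32.4% of promoters. SOX21 held 11 at 58.8%, with 50.3% of promoters having as many, the same number as the median promoter. SOX4 held 8 at 48.8%. The emptiest start of the 4, that of SOX1, was also the richest in G and C. The start of SOX21, at the median CpG count of promoters, was low as well. These ranks are among promoters and over 250 bases, whereas levels are for 1 kb bins against all listed autosomal bins. The RefSeq starts on GRCh38.p14 and the hg19 starts given to the kb were not matched to each other. The printed bases may therefore lie outside the bins nearest to the start. Composition can change how well a stretch is amplified and sequenced, and with no input library the part of composition in the low reads was not tested. In all, 4 short sequences were searched on both strands. CCAAT lies in the 250 bases of SOX2, SOX4 and SOX21, and in 32.0% of all promoters. The GC box GGGCGG lies in SOX2 alone of the 4 genes, and in 42.6% of all promoters. TATAAA lies in SOX21 alone, and in 10.7%. ACAAT, the only form of a SOX site searched, lies in none of the 4, and in 24.6% of all promoters. Other forms were not searched, so these bases may still hold a SOX site.

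SOX1 starts at 112722 kb of chromosome 13 on hg19 and, in the RefSeq gene order, overlaps the long noncoding RNA gene SOX1-OT. Its 10 bins held 84 and 166 reads. The side before the start had 0.564 and 0.757, against 0.200 and 0.128 on the side after it, where the gene lies. The highest bin within 5 kb was from 4 to 3 kb upstream, at 1.27 and 1.76, and below the 2-fold minimum in both libraries. The nearest enriched bins were 27 kb upstream, a run of 2 kb at 2.95 and 2.86. SOX1 therefore lay in an area of moderate level, 1.14 and 1.21 over the surrounding Mb, without a domain of its own.

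SOX2, at 181430 kb of chromosome 3, lies inside the long noncoding RNA gene SOX2-OT. The mark stood on its upstream side: 23 enriched bins within 50 kb upstream at a mean level of 2.11 and 2.32, against 9 bins downstream at 1.30 and 1.28. A run of enriched bins, joined across gaps of at most 1 bin, covered 7 kb from 181420001 to 181427000 at 3.46 and 3.75. It ended 3 kb before the start. Of all 45194 such runs, with a median of 3 kb, 29.1% were at least as long. Joined across gaps of 3 bins, the run measured 23 kb. In the 7 kb run, the bin from 5 to 4 kb upstream reached 4.73 and 5.73. The highest bin of the area, from 14 to 13 kb upstream, reached 6.14 and 5.43. Downstream, the bin from 3 to 4 kb, at 2.18 and 2.45, was the sole enriched bin within 5 kb.

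SOX14, at 137484 kb of chromosome 3, had the mark directly after its start. Its 3 enriched bins were the first 3 kb after the start, a run from 137484001 to 137487000 at 3.79 and 3.34. Of all runs, 58.2% were at least as long. The 3 bins began at 3.18 and 3.28 and peaked in the bin from 1 to 2 kb at 4.86 and 4.64. Before the start, 5 kb had 1.01 and 1.25. The wider area leaned the same way, with 3.51 and 4.01 over 50 kb downstream against 1.96 and 2.36 upstream. A run of 33 kb lay from 18 to 51 kb downstream at 3.85 and 4.34, with the highest bin of the area, 7.27 and 7.86, in it. Next to SOX14 in RefSeq is LINC01210, and the next coding gene on that side is CLDN18.

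SOX21, at 95364 kb of chromosome 13 and transcribed from the minus strand, sits head to head with the noncoding gene SOX21-AS1 and was the most heavily surrounded of the 7. The 3 bins from 2 kb upstream to 1 kb downstream ranged from 0.409 to 0.49994 in replicate 1 and 0.346 to 0.533 in replicate 2. The next bin on the downstream side already had 2.95 and 3.12, and the one after it 6.18 and 5.04. On the upstream side the bin from 3 to 2 kb had 2.27 and 2.72. The gap was therefore 3 bins wide with steps at either edge within 1 bin. The run downstream covered 5 kb, from 95358001 to 95363000, at 3.87 and 3.72, and 39.5% of all runs were at least as long. Both sides were alike over 50 kb, with 39 enriched bins each and levels of 3.72 and 3.93 upstream and 3.57 and 3.70 downstream. The longest run near it spanned 47 kb, from 22 to 69 kb upstream, at 4.35 and 4.604.

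**Figure D4:**
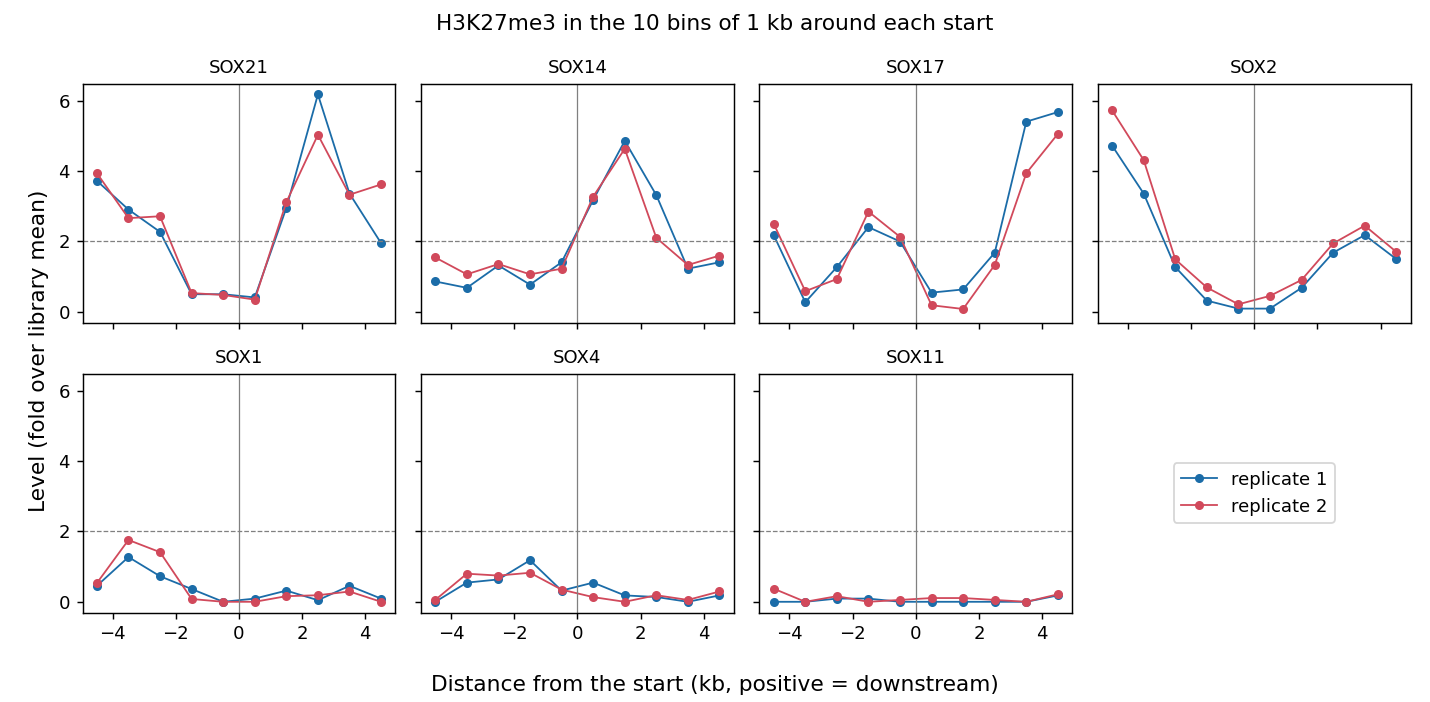
Level (y axis, fold over the library mean) in each of the 10 bins of 1 kb around the start (x axis, kb, downstream positive) of the 7 genes, with a line per library and a dashed line at 2-fold. SOX21 shows a gap of 3 bins between 0.346 and 0.533, SOX14 a peak of 4.86 and 4.64 after the start, and SOX2 a rise on its upstream side to 4.73 and 5.73.

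SOX17, at 55370 kb of chromosome 8, had the mark in blocks on either side. Of its 4 enriched bins, 2 were upstream and 2 downstream. The bin from 1 to 0 kb upstream stood at 1.9998, just under the minimum, and 2.13, and the bins from 0 to 2 kb downstream ranged from 0.0799 to 0.636 in the individual libraries. The bin from 3 to 4 kb downstream, at 5.41 and 3.94, opened a block, and the bin from 4 to 5 kb reached 5.68 and 5.06. This block held the highest bin of the area, from 7 to 8 kb, at 7.73 and 6.05. Upstream, a run of 21 kb ended 4 kb before the start, at 3.48 and 3.42. With levels scaled to the mean of the own chromosome, SOX17 had 1.61 and 2 enriched bins, SOX14 had 2.07 and 3, and SOX2 had 1.93 and 3, which put SOX17 last of the 4 genes with enriched bins.

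SOX4, at 21594 kb of chromosome 6, and SOX11, at 5833 kb of chromosome 2, belong to the same subgroup, and neither had a single enriched bin within 50 kb. This was not particular to them, since SOX10, SOX12, ACTB and GAPDH had 0 within 50 kb as well. The share of all 100 kb windows without an enriched bin was not computed. At SOX4 the highest of the 10 bins was from 2 to 1 kb upstream, at 1.18 and 0.826, and the 5 kb before the start had 0.536 and 0.554, against 0.209 and 0.133 after it. At SOX11 the 10 bins held 8 reads and 40 reads, 7 of them had no read in replicate 1, and no bin exceeded 0.182 in replicate 1 and 0.373 in replicate 2. An empty bin allows a level of up to 0.136 in replicate 1, the limit of 3 reads. In 96 of 100 bins around SOX11 and 80 around SOX4 the level was under 0.5 in both libraries. The median listed autosomal bin was itself under 0.5, at 0.409 in replicate 1 and 0.373 in replicate 2. Among all autosomal 100 kb windows, SOX4 ranked at percentile 32.4 and SOX11 at 17.9 in the mean of both libraries.

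The lack of enriched bins at these 2 genes reached far. The nearest enriched bin was 1094 kb from the SOX4 start and 1079 kb from the SOX11 start, against at most 27 kb for the other 5 genes. Of all listed autosomal bins, 13.9% lay more than 1000 kb from an enriched bin, a limit chosen after the values had been seen. Over the surrounding Mb the level was 0.329 and 0.359 for SOX4 and 0.187 and 0.199 for SOX11, with 0% of bins enriched. The share was 45.1% for SOX21, 34.2% for SOX2, 29.4% for SOX14, 26.4% for SOX17 and 16.3% for SOX1. These stand beside 12.2% of all bins. A marked Mb did not go with marked bins at the start in every gene: SOX1 had none within 5 kb, and neither did SOX7, with 43.2% of its Mb enriched, nor SOX30, with 25.7%.

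The profiles repeated between libraries but not between genes. Over the 100 bins of a gene, Spearman's rho between the libraries was 0.832 for SOX1 and between 0.895 and 0.918 for SOX2, SOX14, SOX17 and SOX21. It was 0.461 for SOX4 and 0.233 for SOX11, whose counts are low. Between genes, over the same strand-oriented bins, the highest rho of 21 pairs was 0.243, for SOX14 and SOX17, and the lowest was -0.266, for SOX2 and SOX4. The most alike were SOX11 for SOX1 (0.163), SOX1 for SOX2 (0.146), SOX21 for SOX4 (0.101) and SOX11 for SOX21 (0.119). These are correlations across neighbouring bins of the same libraries, which are not independent, and none is large. Relatives did not share a shape: the SOX14 and SOX21 profiles had a rho of -0.147, and those of SOX1 and SOX2 0.146.

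In addition, 10 further members of the family were read in the same way, at starts taken to the kb from general knowledge of hg19. None of SOX3, SOX7, SOX8, SOX9, SOX10, SOX12, SOX13, SOX15, SOX18 and SOX30 had an enriched bin within 5 kb, 0 of 100 bins by the Poisson test (2 at an unadjusted p under 0.05 in both libraries), beside the 16 of 70 of the 7 genes and 12.2% of all bins. Their median level was 0.314 and 0.293, with the highest at SOX13 (0.968 and 1.25) and the lowest at SOX15 (0.0727 and 0.0719). SOX3 is on chromosome X, and its level too is over the autosomal mean, without correction for copy number. SOX9, the regulator of intestinal crypt cells, had 0.523 and 0.517 within 5 kb and 1.29 and 1.36 within 50 kb. Within 50 kb, 49 of 1000 bins were enriched (4.9%, against 12.2% of all bins), of them 18 at SOX8 and 11 at SOX9. The 7 genes were picked by name with results of these data known, so this contrast is a description and was not tested.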

How the data were processed

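The authors deposited raw read counts per bin of 1000 bases for each library, per the text deposited with the series, and leave out bins without a read. BWA 0.7.12 aligned the reads, and the build is hg19 (GRCh37), both per the submitters' processing notes. How reads were counted, and whether duplicates or poorly mapped reads were removed, is not given in the sources used here. Of the counts from 1 to 10, 67.9% were even numbers in either library.

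An absent bin was taken as 0. Counts were divided by the library's mean over listed autosomal bins, and windows were the 10 bins (or 100 bins) around the start. The Poisson test ran on all listed bins of chromosomes 1 to 22 and X, in each library alone, and was tested on simulated data. Between the libraries, bin counts scattered 2.52 times as widely in variance as independent reads would, so counting error at 2-fold is 23.9% in replicate 1 and 18.3% in replicate 2 for a bin, and 7.56% and 5.79% for 10 bins. The 2 libraries form 1 group, and the test compares bins with their own library, so no comparison between groups was made. Correlations used log2(level + 0.1) for the mean of both libraries.

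All 7 genes are named; SOX genes with 1 well known start, ACTB and GAPDH stand beside them. The members and lists were chosen with earlier results of these data known. hg19 starts of the 7 genes were given to the kb with their selection, and strands come from the RefSeq promoter table or, for SOX11, SOX14 and SOX17, from general knowledge. The RefSeq gene table (GRCh38.p14) served for neighbours only. Alternatives were other thresholds, scalings, windows, shifted starts, gaps, filters and each replicate left out. The analysis used scipy 1.17.1, pandas 2.3.3 and numpy 2.4.6 under Python 3.11.15, and plots were drawn with matplotlib 3.10.9.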

Additional observations from a re-analysis of the deposited data

How the results depend on the processing

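The main limits are the kb-rounded starts, the lack of an input library and the threshold. The 16 enriched bins within 5 kb became 9 at a fold minimum of 3, 30 with levels over the autosomal median bin, 4 of 28 bins at a half-width of 2 kb and 37 of 140 at 10 kb, and ranged from 16 to 18 with a replicate left out. The median level of 1.79 became 4.61 over the autosomal median, 2.05 with absent bins as 0, 1.41 with starts moved 1 kb up, 0.442 at a half-width of 2 kb and 2.03 at 10 kb, and ranged from 1.59 to 1.92 with a replicate left out. The median run at the start, with genes lacking one as 0, was 1 kb. It became 3 kb at a gap of 3 bins, 2 kb at a fold minimum of 3 and 3 kb over the own chromosome. With a replicate left out it ranged from 1 to 2 kb. At a gap of 3 bins the runs of SOX2, SOX17 and SOX21 went from 7, 1 and 5 kb to 23, 24 and 23 kb. That of SOX14 stayed at 3 kb. The median ratio of start to flanks, 0.300, became 0.625 with starts moved 1 kb down and ranged from 0.134 to 0.484 with a replicate left out. In the other 21 cases these summaries stayed within their limits of 1.5 times or 1 SD. SOX11 had 0 enriched bins under each setting, and SOX1 and SOX4 had 1 each with levels over the autosomal median. For each change above the cause was not tested. No paired analysis was possible because the 2 libraries form a single group.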
